A study of Drosophila melanogaster with 2 samples.

Results

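The cluster of mir-283, mir-304 and mir-12 is a group of 3 neighbouring miRNA hairpins on the X chromosome of Drosophila melanogaster. Its members were taken by name: every listed product of these 3 hairpins, which gave 6 of the 221 known mature products listed in both libraries. The hairpins were chosen by their names with earlier results of these data known. In those results miR-304-5p had the highest ethanol-to-control ratio of all compared products, so its ratio is given below as a description and is not a test. The sixth product, miR-12-3p, was added because it is the other arm of a chosen hairpin.

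The study sequenced small RNA from heads of adult Canton-S females aged 3 to 5 days, a wild-type laboratory strain. About 180 flies were pooled in each of the 2 libraries. The control flies sat in ethanol-free air for 45 minutes, and the ethanol flies breathed ethanol vapor for 15 minutes, until sedated, then ethanol-free air for 30 minutes. With 1 library per group the comparison of ethanol with control has no replicate check and no p-value, and treatment and library cannot be told apart. RNA integrity numbers also differed, at 6.80 in the control and 6.40 in the ethanol RNA, and the part of RNA quality in any result was not tested.

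A miRNA hairpin is cut out of a longer transcript by the nuclease Drosha, and Dicer-1 then trims it to a duplex of a 5p and a 3p strand. One strand is usually kept by Argonaute and lowers the output of messenger RNAs that pair with its seed, bases 2 to 8. Hairpins of one primary transcript share their transcription, while the level of each mature product also depends on how its hairpin is cut, which strand is kept and how long the product lasts. Of this cluster, miR-12 is known in the mosquito Aedes aegypti to act on MCM6, a gene needed to license DNA replication.

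All 3 hairpins lie on the plus strand within a single intron of Gmap, a gene for a Golgi protein that binds microtubules. Positions are from the Ensembl annotation of the BDGP6 build, a later build than the BDGP5 named in the submitters' processing notes, and the deposited tables hold no coordinates. Gmap spans chrX:15486922-15511223, and the intron, chrX:15507594-15509717, is 2124 nt long and the same in all 4 annotated Gmap transcripts. In the direction of transcription, mir-283 comes first at chrX:15507956-15508055. After a gap of 903 nt follows mir-304 at chrX:15508959-15509046, and 426 nt further on lies mir-12 at chrX:15509473-15509546. None of the 3 overlaps a Gmap exon. The annotated lengths of the 6 mature products, 21 to 23 nt, equalled the lengths of the deposited sequences.

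The 6 mature sequences are shown as deposited, with T for U and with the seed in capitals, because the seed is the part that chooses targets and the cluster has no common one.
miR-283-5p: aAATATCAgctggtaattctgg
miR-283-3p: cGGAATTTcagttggtatcga
miR-304-5p: tAATCTCAatttgtaaatgtgag
miR-304-3p: cACTTTGCaattggagattgct
miR-12-5p: tGAGTATTacatcaggtactggt
miR-12-3p: cAGTACTTatgtcatactacgc

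No seed was shared. For each of the 6 products, 0 of the other 239 known products listed in either library had the same bases 2 to 8, and 0 had the same bases 2 to 7. All 3 of the 3p products begin with C, as did 20.0% of the 120 listed 3p products. Of the 5p products, miR-304-5p and miR-12-5p begin with T, as did 40.8% of the 120 listed 5p products, and miR-283-5p begins with A, as did 24.2%. As background, Argonaute1 in flies favours guide strands that begin with U, and strands that begin with C are often sorted to Argonaute2.

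The cluster was a minor part of the head miRNAs, and nearly all of its reads were miR-12-5p. The control library held 13692046 reads of known miRNAs and the ethanol library 13128478, and levels are counts scaled to these totals (CPM). The 6 products together had 4031 control reads (294.4 CPM) and 2583 ethanol reads (196.7 CPM), or 0.0294% and 0.0197% of known miRNA reads. The brackets below hold exact 95% intervals. They cover counting error only, with each read taken as independent, and leave out variation between flies and between library preparations. PCR copies are not independent molecules, so the intervals may be too narrow even for counting error.

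dme-miR-12-5p, the main product of the third hairpin, had 3710 control reads and 2218 ethanol reads, or 271.0 CPM (262.3 to 279.8) and 168.9 CPM (162.0 to 176.1), and it ranked 64th and 71st by reads in the 2 libraries. Its level was 1.60-fold lower in the ethanol library (1.52 to 1.69), a log2 ratio of -0.68. Being the most deeply read member, it has the narrowest interval of the 6. Its partner strand miR-12-3p had 14 and 15 reads, with a ratio of 1.12 (0.503 to 2.499), so at this depth no difference was detectable.

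dme-miR-304-5p, the main product of the middle hairpin, had the largest ratio of the 6. Its 47 control reads and 141 ethanol reads were 3.43 CPM (2.52 to 4.56) and 10.7 CPM (9.04 to 12.7). The ratio was 3.13 (2.23 to 4.45), a log2 ratio of 1.65, with the whole counting interval above 2. By reads it was 171st in the control and 139th in the ethanol library. dme-miR-304-3p had 7 reads in each library, close to the lowest listed count of 5, and its ratio of 1.04 (0.312 to 3.48) leaves a difference of more than 3-fold in either direction within counting error.

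The strands of the first hairpin had overlapping intervals in the control library, while in the ethanol library the 3p strand was the lower one. dme-miR-283-5p had 137 control and 129 ethanol reads, or 10.01 CPM (8.40 to 11.8) and 9.83 CPM (8.20 to 11.7). The ratio was 0.982 (0.766 to 1.26), and the libraries did not differ beyond counting error. dme-miR-283-3p had 116 and 73 reads, or 8.47 CPM (7.001 to 10.2) and 5.56 CPM (4.36 to 6.99). It was 1.52-fold lower in the ethanol library (1.13 to 2.07), an interval that left out 1.

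**Figure D1:**
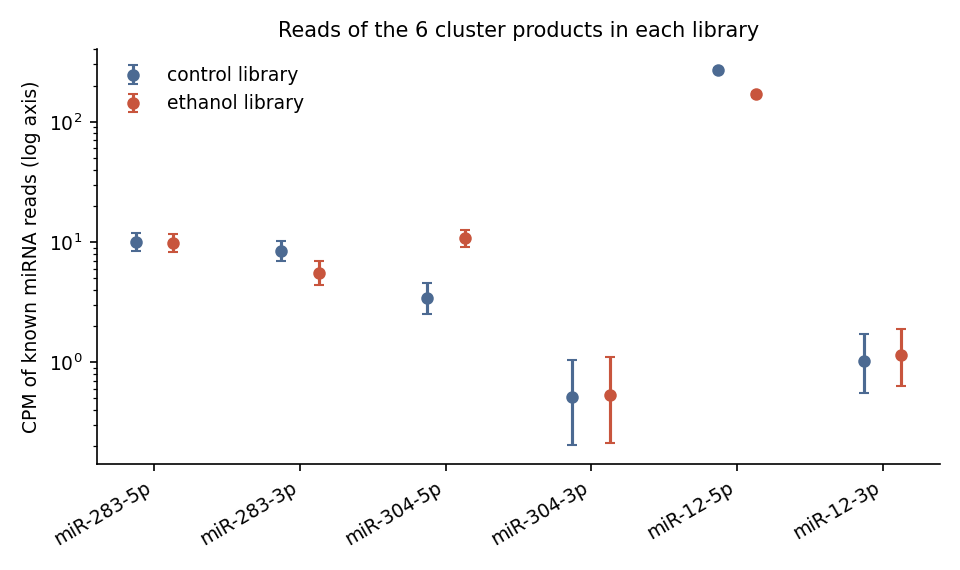
Level of each of the 6 products in the control (blue) and ethanol (red) library, in CPM of known miRNA reads on a log axis; points are single libraries and bars are exact Poisson 95% intervals. miR-12-5p lies far above the rest at 271.0 and 168.9 CPM, and of the 6 only miR-304-5p is higher in the ethanol library beyond counting error.

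The order of the products changed between the libraries at the level of miR-304-5p. In the control the order from the top was miR-12-5p, miR-283-5p, miR-283-3p, miR-304-5p, miR-12-3p and miR-304-3p. In the ethanol library miR-304-5p stood second, above both miR-283 strands, although its interval overlapped that of miR-283-5p. The intervals of miR-283-5p and miR-283-3p overlapped in the control and were apart in the ethanol library, and those of miR-12-3p and miR-304-3p overlapped in both.

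Of the 6 products, 4 had at least 100 reads over both libraries and were compared with the other products at that depth, 168 in all. A ratio of at least 2 was found for 1 of the 4, miR-304-5p, against 2.38% of all compared products. The high ratio of miR-304-5p was known when the hairpins were chosen, and the product is itself part of the 2.38%, so this count is not a test. A ratio of at most 0.5 was found for 0 of the 4, against 1.19%. The counting interval lay above a ratio of 1 for 1 of the 4 (36.9% of all compared products) and below 1 for 2 of the 4 (38.1%), and shares of 4 products are too coarse to set apart from that background. The median log2 ratio was -0.32 over the 4 and -0.020 over all 168, whose quartiles were -0.28 and 0.32.

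miR-304-5p and the 2 miR-283 strands were read at shallow depth, where counting error is wide. Among the 30 compared products with 100 to 300 reads over both libraries, 10% were past 2-fold on either side, and log2 ratios ran from -1.32 to 1.65, with miR-304-5p at the upper end. Over all 168, miR-304-5p had the highest ratio, miR-12-5p the 11th lowest and miR-283-3p the 16th lowest, while miR-283-5p lay in the middle at place 86 from the top. The top place of miR-304-5p was not resolved beyond counting error. Its log2 interval of 1.16 to 2.15 overlapped those of miR-1008-3p (0.71 to 2.03) and miR-1003-3p (1.22 to 1.42). Of the 51 listed products of other hairpins below 100 reads, 2 had a higher ratio than miR-304-5p, miR-6-3p and miR-310-3p. The lower bound of the interval was at least 2 for 3 of the 168 products, of which miR-304-5p was 1.

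**Figure D2:**
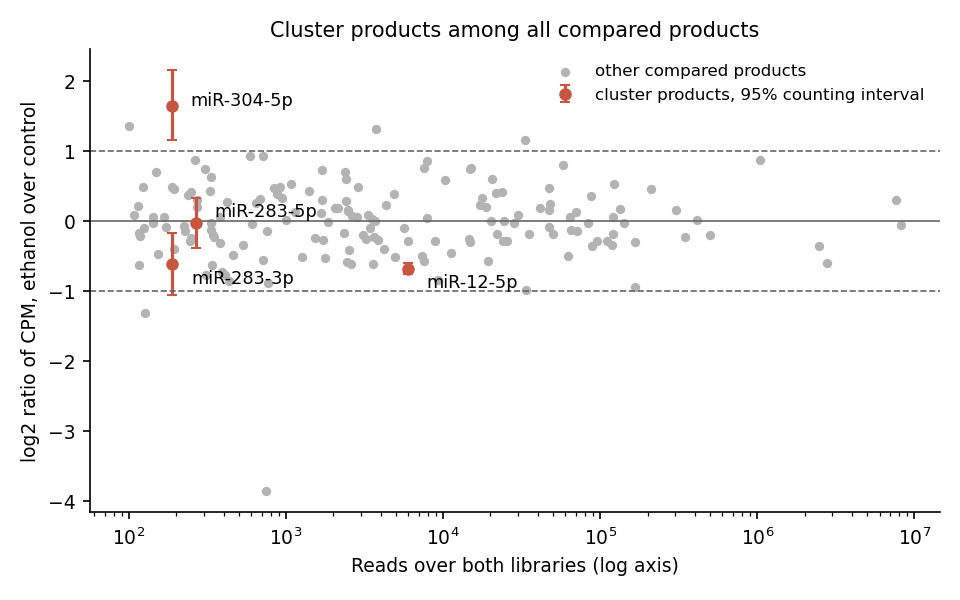
Log2 ratio of CPM, ethanol over control, against reads over both libraries (log axis) for the 168 compared products; the 4 cluster products are red with their 95% counting intervals, and dashed lines mark 2-fold. By point value miR-304-5p lies at the top at 1.65, while miR-12-5p and miR-283-3p lie below 0 within 2-fold.

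Summed by hairpin, the 3 neighbours of one intron did not move together. mir-304 had 54 and 148 reads, a ratio of 2.86 (2.08 to 3.98). mir-12 had 3724 and 2233 reads, 1.60-fold lower in the ethanol library (1.52 to 1.69), and mir-283 had 253 and 202, a ratio of 0.833 (0.689 to 1.01). The middle hairpin was thus higher and the third lower, while the interval of the first held 1.

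Ratios between members need no scaling between libraries, since both reads come from the same library. For each read of miR-304-5p the control held 78.9 reads of miR-12-5p, and the ethanol library 15.7. The odds of miR-304-5p against miR-12-5p were 5.02 times as high in the ethanol library (3.57 to 7.17), and against miR-283-5p 3.19 times as high (2.08 to 4.91). Both intervals lay above 2. The odds of miR-283-5p against miR-12-5p were 1.58 times as high (1.22 to 2.03), and those of miR-283-3p against miR-12-5p 1.05 times (0.771 to 1.43), so the proportion between the 2 products that were lower did not differ beyond counting error. As shares of the cluster's reads, mir-12 held 92.4% in the control (91.5 to 93.2) and 86.4% in the ethanol library (85.1 to 87.7), while mir-304 held 1.34% (1.01 to 1.74) and 5.73% (4.86 to 6.70). mir-283 held 6.28% (5.55 to 7.07) and 7.82% (6.81 to 8.92).

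**Figure D3:**
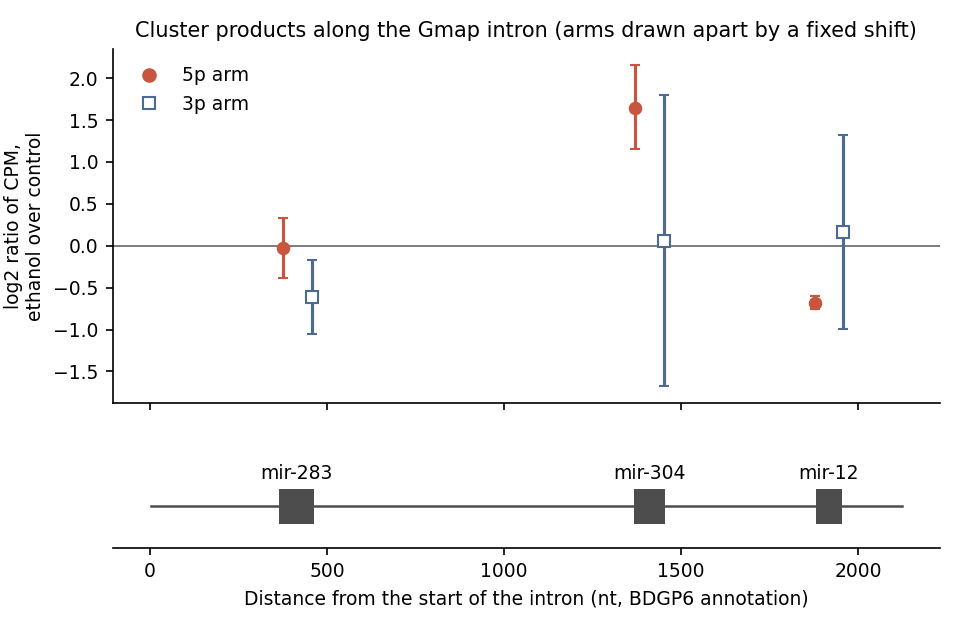
Upper panel, log2 ratio of CPM, ethanol over control, for both arms of each hairpin with 95% counting intervals; lower panel, the hairpins to scale along the 2124 nt Gmap intron. The 5p product of the middle hairpin stands at 1.65 between neighbours at -0.03 and -0.68, and the wide bars belong to miR-304-3p and miR-12-3p, with 14 and 29 reads over both libraries.

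The 3 hairpins differed in how their reads split between the arms. mir-12 was almost wholly 5p, with a 3p share of 0.376% in the control (0.206 to 0.630) and 0.672% in the ethanol library (0.376 to 1.11). mir-283 was nearly even in the control, with 45.8% of its reads from the 3p arm (39.6 to 52.2), while in the ethanol library the 3p share was 36.1% (29.5 to 43.2), an interval below 50%. mir-304 lay between, at 12.96% (5.37 to 24.9) and 4.73% (1.92 to 9.50).

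Changes in arm use were poorly resolved. For mir-283 the odds of 3p against 5p were 1.496-fold lower in the ethanol library, with an interval of 1.01 to 2.23 that only just left out 1. Of the 61 hairpins with both arms compared, 18.0% had arm odds at least 2-fold apart; mir-283, the only hairpin of the cluster among them, was not one. For mir-304 the odds were 3.00-fold lower with an interval of 0.844 to 10.5, and for mir-12 the odds ratio was 1.79 (0.805 to 4.02). Neither shift was detectable at this depth, so whether the higher level of miR-304-5p extended to its partner strand could not be read from these counts.

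Across all 168 products the ratio was lower where the mature sequence held more guanine, with Spearman's rho of -0.50 across miRNAs of 1 pair of libraries, which is a description. miR-304-5p holds 4 guanines in 23 bases (17.4%) and miR-283-5p 5 in 22 (22.7%). miR-12-5p holds 6 in 23 (26.1%) and miR-283-3p 6 in 21 (28.6%), so the 2 products that were lower held more guanine than the other 2. A linear fit over all compared products fell by 0.23 on the log2 scale per 10 percentage points of guanine. After correction to the median content of 22.9% the log2 ratio was 1.52 for miR-304-5p, -0.03 for miR-283-5p, -0.61 for miR-12-5p and -0.48 for miR-283-3p. With 17.4% guanine against a median of 22.9%, the fit could move miR-304-5p only a little from 1.65. The part of guanine content in the ratios was not tested.

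**Figure D4:**
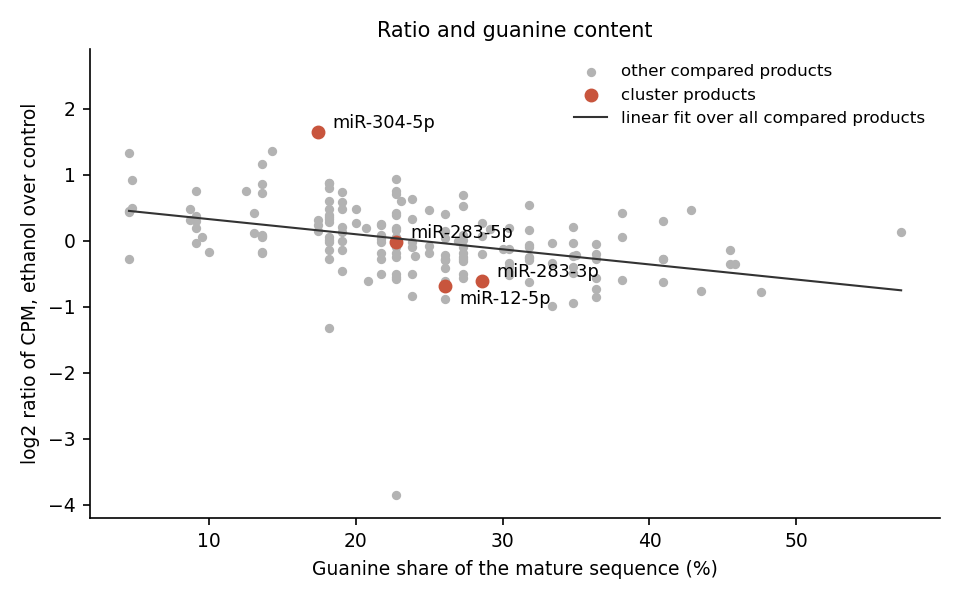
Log2 ratio of CPM, ethanol over control, against the guanine share of the mature sequence for the 168 compared products, with a linear fit over all of them; cluster products are red. miR-283-5p sits near the line, miR-12-5p and miR-283-3p below it, and miR-304-5p well above it at 17.4% guanine.

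Set beside 3 other clusters of 3 or more hairpins, the cluster held compared products that lay farther apart, through miR-304-5p alone. The compared products of the cluster spanned a log2 range of 2.33, or 5.02-fold, from miR-12-5p to miR-304-5p. The let-7 complex (mir-100, let-7 and mir-125) spanned 1.33 over 6 products, and its most abundant product, let-7-5p, had a log2 ratio of -0.60. The mir-317, mir-277 and mir-34 cluster spanned 1.40 over 6, with miR-34-5p at -0.35. The mir-9c, mir-306, mir-79 and mir-9b cluster spanned 1.02 over 6, with miR-79-3p at -0.19. No test of the difference between clusters was made, and the upper end in the cluster of mir-304 rests on the 188 reads of 1 product. That product was known to have the highest ratio when the hairpins were chosen, so the wide range follows from the choice. Without it the compared products ran only from -0.68 to -0.03, closer together than those of each of the other 3 clusters. Other clusters were not ranged. miR-310-3p (log2 ratio 1.70, 8 and 25 reads) lay above the range of the mir-304 cluster and miR-313-5p (-1.19, 31 and 13 reads) below it. miR-6-3p (1.95, 10 and 37 reads) also lay above it. All 3 were read too shallowly to be compared. Whether the wide range is particular to the cluster of mir-304 was not tested. Products of both signs were present in each of the 4 clusters.

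**Figure D5:**
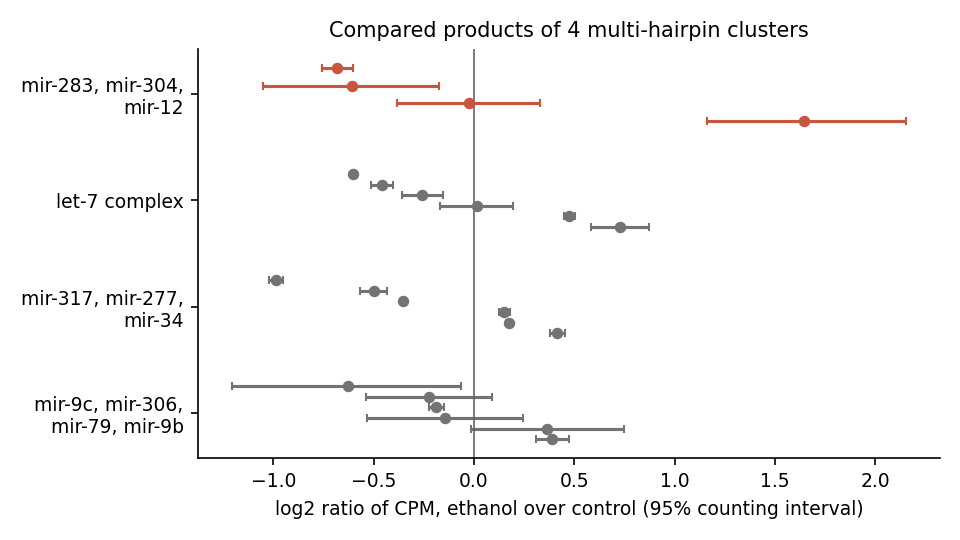
Log2 ratio of CPM, ethanol over control, of the compared products of 4 multi-hairpin clusters, 1 point per product with its 95% counting interval. The cluster of mir-283, mir-304 and mir-12 (red) has 3 products below 0 and miR-304-5p apart at 1.65, while the products of the other 3 clusters lie between -0.99 and 0.73.

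For the main strand of each hairpin, the 2 products of other hairpins with the nearest ratios were named, among those with at least 100 reads over both libraries. For miR-304-5p they were miR-1008-3p (29 and 71 reads, log2 ratio 1.35) and miR-1003-3p (1105 and 2649 reads, 1.32), both from mirtrons, hairpins that are spliced out as whole introns. For miR-12-5p they were miR-995-5p (246 and 142 reads, -0.73) and miR-306-3p (71 and 44 reads, -0.63). For miR-283-5p they were miR-2a-2-5p (-0.028) and miR-31a-5p (-0.028). Below that depth 3 listed products were nearer to miR-304-5p than miR-1003-3p was (miR-6-3p, miR-310-3p and miR-1009-3p), and miR-4985-5p was nearer to miR-12-5p than both products named for it. Over 2 libraries this likeness rests on 1 ratio per product.

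The authors' deposited table of 196 known miRNAs holds 4 of the 6 products, leaving out miR-304-3p and miR-12-3p. The authors' deposited table marks 14 of its 196 products as different (7.14%), in either direction. Of the 4 it marks miR-304-5p alone, with a log2 ratio of 1.56 of RPM, its reads scaled to the library total. In the authors' deposited table the log2 ratio is -0.76 for miR-12-5p, -0.69 for miR-283-3p and -0.11 for miR-283-5p. The p-values in the authors' deposited table compare the 2 libraries and not the treatments. The unmarked miR-12-5p has a smaller p-value there than miR-304-5p, so the mark does not follow the p-value alone.

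Markers of head tissues were present in both libraries. All 5 of them (miR-124-3p of neurons, miR-7-5p and miR-210-3p of the eye, miR-263a-5p and miR-263b-5p of sense organs) were listed, with 103 to 9125 CPM each and 19884 and 18751 CPM in sum. Of 8 markers of gut, posterior body and gonad, 5 were listed in both, and miR-iab-8-5p and miR-313-3p were listed in neither. miR-311-3p was listed in the ethanol library alone, with 9 reads. The listed reads of the 8 came to 131 and 143 CPM in sum. The muscle markers miR-1-3p and miR-133-3p summed to 313755 and 301670 CPM. Within the lists, single markers moved in opposite directions. miR-124-3p, the only neuron marker, was 1.93-fold lower in the ethanol library (1.91 to 1.95), at 8113 and 4205 CPM, a larger difference than that of miR-12-5p. miR-263a-5p was higher, at 6637 and 9125 CPM, a ratio of 1.37 (1.36 to 1.39). Of the gonad markers, miR-310-3p had 8 and 25 reads, a ratio of 3.26 (1.43 to 8.36), and miR-312-3p had 58 and 90, a ratio of 1.62 (1.15 to 2.29). The remaining markers listed in both libraries had ratios between 0.822 and 1.15. The part of these differences in the cluster's ratios was not tested. In a bulk sample, fewer cells of a type and fewer copies per cell cannot be told apart.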

How the data were processed

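Per the labels' protocols, each group gave 1 Illumina library of gel-selected small RNA (18 to 30 nt). The authors deposited counts of reads per mature miRNA, listed from 5 reads up, and RPM, the count scaled to a library total of 17337082 (control) or 17600983 (ethanol) reads. The deposited comparison table adds a log2 ratio of RPM and a p-value. Its test, the aligner and the miRNA database were not given in the sources used here. BDGP5 is the build in the submitters' processing notes.

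Repeated names kept their largest count, and identical sequences with the same count were used once. Intervals are exact conditional binomial for ratios, Poisson for levels, Clopper-Pearson for shares and exact conditional for odds, all 95%. Those for ratios and odds were tested on simulated Poisson counts, the error they assume, which hold no PCR copies. No p-value was computed, for want of replicates. edgeR 4.0.16 (TMM) and DESeq2 1.42.0 under R 4.3.3 gave alternative scaling; the rest was done in Python 3.11.15 with pandas 2.3.3, NumPy 2.4.6, SciPy 1.17.1 and matplotlib 3.10.9. Chromosomes were looked up in RefSeq by symbol.

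Members and lists were chosen with earlier results of these data known. Named products were every arm of the 3 hairpins, the 2 compared products nearest in log2 ratio to each main strand, and the most abundant of each comparison cluster.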

Additional observations from a re-analysis of the deposited data

How the results depend on the processing

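No paired analysis was possible because each group has 1 library. The 2-fold count of higher products stayed at 1 under every alternative run (the authors' RPM, edgeR's TMM, DESeq2's size factors, a total without the 4 most abundant products, the correction for guanine, minimums of 10 reads or none, and a 1.5-fold threshold), and the log2 ratio of miR-304-5p ranged from 1.52 to 1.65. That count had little room to change. The largest log2 shift by a scaling was -0.12, and a lower minimum or threshold could not take miR-304-5p out. A minimum of 1000 reads, not run for this count, would leave out miR-304-5p, which had 188 reads over both libraries. With a threshold of 1.5-fold, 2 products counted as lower, miR-283-3p and miR-12-5p. The log2 ratio of miR-12-5p was -0.76 under the authors' RPM and -0.80 without the 4 most abundant products, and that of the 6 products summed was -0.58 as reported, -0.66 and -0.70. Those 2 scalings move the median log2 ratio of all products from -0.020 to -0.10 and -0.14. The sum without miR-12-5p, an alternative added after seeing the data, was 0.25, because that product holds most of the reads. The log2 range within the mir-9c cluster was 0.58 with a minimum of 1000 reads. The same minimum left 1 product of the mir-283, mir-304 and mir-12 cluster and so gave it no range. Of 74 alternative values, 67 stayed within the counting interval of the reported value or, for counts and ranges, within 1.5 times it. Depth limits miR-304-3p and miR-12-3p most. The sign of their ratios, whose intervals held 1, changed with the scaling or the correction.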

Other observations

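The 3′ end of miR-304-5p is a perfect complement of part of miR-1003-3p, the product of a mirtron on chromosome 3R that also had a ratio above 2. The stretch is 12 bases long, bases 12 to 23 of miR-304-5p and bases 2 to 13 of miR-1003-3p, and is shown in capitals, with T for U as deposited.
miR-304-5p: taatctcaattTGTAAATGTGAG
miR-1003-3p: tCTCACATTTACAtattcacag

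Among the 240 known products listed in either library there are 28594 pairs whose hairpin names differ. Of these, 1 pair, the one shown, had a perfect complementary run of 12 or more bases. A run of 10 or more was found in 8 pairs. Arms of a hairpin with numbered copies, such as miR-281-1-5p and miR-281-3p, carry different names and were counted among the pairs. In all other pairs with a cluster product the longest run was 8 bases. The stretch covers the seed of miR-1003-3p and lies outside that of miR-304-5p. The search was made after the ratios were seen, G:U pairs were not counted, and whether the strands meet in the cell was not tested. miR-1003-3p had 1105 control and 2649 ethanol reads, a log2 ratio of 1.32, against 47 and 141 reads and 1.65 for miR-304-5p.

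None of the 99 candidate miRNAs named by the authors overlapped a cluster product. The longest run of bases that a candidate shared with one of the 6, on either strand, was 9. The hairpin loops and flanks were not searched, since no hairpin sequence was used here.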
